A study of Mus musculus with 9 samples.

Results

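The genes described here are the interferon regulatory factors and the genes that answer to interferon, measured as RNA in mouse liver. The 32 members were chosen by gene name, with results of this same comparison already known, so their differences between the groups are a description and not independent evidence. Of the 32, 30 had a probe set of their own among the 18193 genes tested. The probe set for Isg15, a ubiquitin-like protein, also carries another symbol, and Ifi44 had no named probe set, so neither is given a value. The livers came from male mice at 14 weeks of age on regular chow. The 4 db/db samples came from BKS.Cg-Leprdb mice, which carry the db mutation of the leptin receptor and had by then become obese and diabetic with fatty liver. The 5 BKS samples came from littermates of the C57BL/KSlepr+/+ genotype, with the intact receptor. Each sample was hybridised to 1 Affymetrix array. The labels number the samples within a group but name no separate animals, so the p-values cover the spread of these samples, which may be technical. The db mutation is present in every cell of the animal, and obesity, diabetes and fatty liver come together with it in this model.

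Interferons are secreted proteins, and cells make those of types I and III when they sense viral or other foreign nucleic acid. Type I and type III interferons act through receptor-bound kinases on STAT proteins, and Stat2 then joins Irf9 in a complex that binds a promoter element called the interferon-stimulated response element (ISRE). Type II interferon, interferon-gamma, acts through a STAT dimer that binds the gamma-activated site (GAS) and through Irf1. The interferon regulatory factors are transcription factors, some of which switch on interferon genes and some of which switch on or restrain the response genes. In liver, hepatocytes and the resident macrophages, the Kupffer cells, both respond to interferon.

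Levels are log2 signals after adding 16 and quantile normalization, and a difference is the db/db mean minus the BKS mean on that scale, which understates the change of dim genes. A gene was called when its limma p, adjusted by Benjamini-Hochberg over all 18193 genes, was under 0.05. Median signals per array ran from 67.4 to 110.8, and any pair of arrays correlated at 0.919 to 0.967 across genes. A control signal, that for 18S ribosomal RNA, divided the arrays into 2 sets. It ranged from 22.2 to 43.5 on BKS 1, BKS 2, BKS 3, db/db 1 and db/db 2 (low 18S signal) and from 1873 to 19771 on the remaining 4 (high 18S signal). Hepatocyte markers were high on all arrays, with a summed signal of 8 genes between 299260 and 327240. The probe set for Lepr, the leptin receptor, differed by -0.87 (SE 0.41, limma adjusted p = 0.290). The db mutation alters the splicing of 1 form of this RNA, so this value does not check the labels.

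Of the 30 measured members, 26 had a lower mean in db/db liver and 4 a higher one (Gbp2, Igtp, Gbp3 and Oasl1), against 50.3% of all genes with a lower mean. Past the threshold, 5 of the 30 fell (16.7%), beside 2.6% of all genes. These were Irf5, Oas1a, Xaf1, Bst2 and Ifi35, and no member rose, beside 2.89% of all genes that did. With an unadjusted p under 0.05 there were 12 members (40.0%), beside 17.6% of all genes. In 4 members (Irf5, Oas1a, Xaf1 and Bst2) all db/db arrays lay below all BKS arrays, as in 4.42% of all genes, and in none did they all lie above, as in 4.73% of all genes. The median difference of the members was -0.46, with a range from -1.92 to 1.70, and the median of all genes was -0.0022. In bulk liver RNA, fewer cells of a type and less RNA per cell cannot be told apart.

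**Figure D1:**
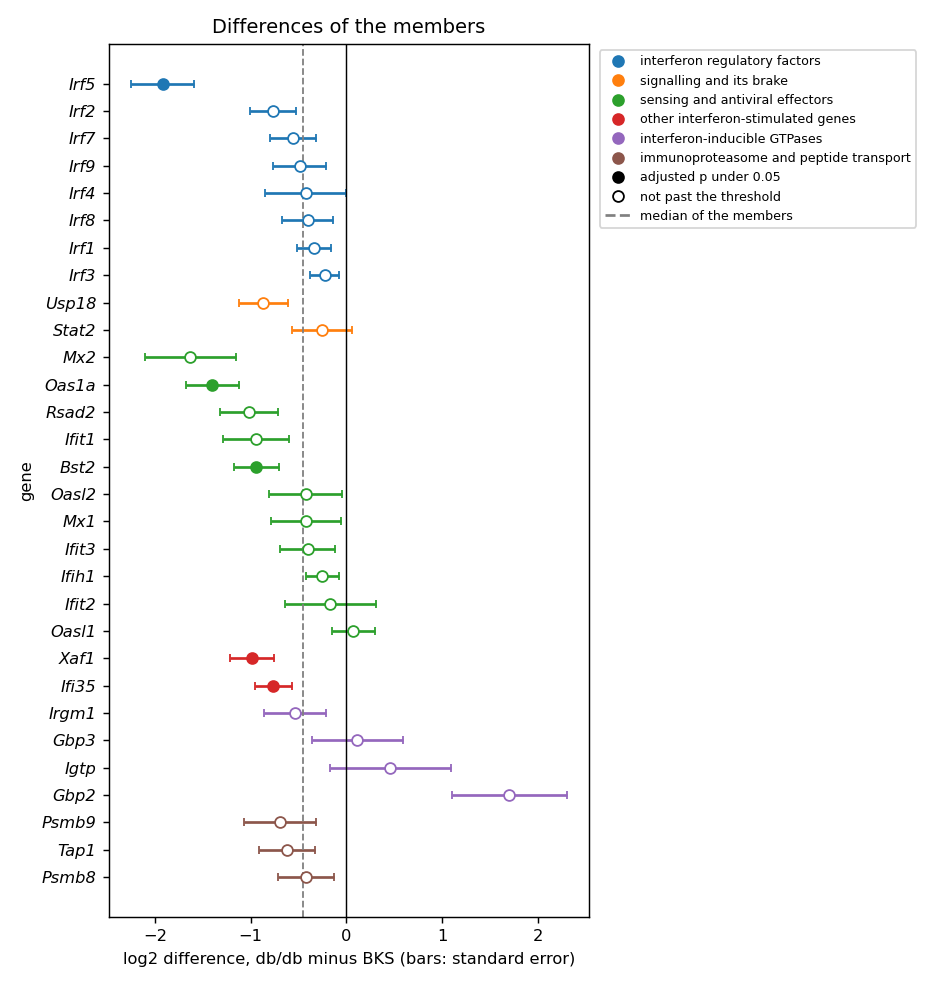
Difference of each measured member between db/db and BKS liver on the log2 scale (x axis), with its standard error as a bar and the role of the gene as the colour; filled points have an adjusted p under 0.05 over all genes tested. The 5 filled points lie between -1.92 (Irf5) and -0.76 (Ifi35), and Gbp2, at 1.70, is the farthest to the right without passing the threshold.

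The count of members called lower moved with single arrays. It was 11 without db/db 4, 3 without BKS 1, BKS 4 or db/db 1, and 2 without db/db 2 or db/db 3, and without db/db 2 Gbp2 was called higher. Irf5 and Oas1a were called in 9 of 9 fits that left out 1 array. The median difference was -0.72 among the 5 arrays with low 18S signal and -0.45 among the 4 with high 18S signal. Among the latter, Bst2 was the member called lower and Gbp2 the member called higher.

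Sequence that members share was read from RefSeq promoters (GRCm38.p6), 250 bases before to 50 after each annotated start, on both strands. The ISRE core searched was GAAANNGAAA, where N is any base, and overlapping matches were joined. It was found in 13 of 29 member genes with a promoter in the table (13 of their 34 promoters), and in 3.44% of all 32851 promoters of the same length. The GAS letters TTCNNNGAA were found in 9 of the 29 member genes (9 of their 34 promoters) and in 8.30% of all promoters. A match is a description of letters and not a measured binding site. The stretches below hold matches in members of 3 roles, the antiviral effectors Oas1a, Bst2, Ifit1 and Rsad2, the GTPases Gbp2, Irgm1 and Igtp, and Isg15, whose 3 overlapping copies form the longest run. They are printed 5′ to 3′ on the strand of the gene, with the matched ISRE letters in capitals. A match read on the other strand appears as TTTC repeats.
Oas1a: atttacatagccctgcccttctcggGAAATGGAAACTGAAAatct
Bst2: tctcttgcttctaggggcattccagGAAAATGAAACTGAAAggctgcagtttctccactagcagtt
Ifit1: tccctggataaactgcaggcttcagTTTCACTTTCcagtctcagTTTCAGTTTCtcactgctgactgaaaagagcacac
Rsad2: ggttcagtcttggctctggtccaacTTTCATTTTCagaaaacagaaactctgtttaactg
Gbp2: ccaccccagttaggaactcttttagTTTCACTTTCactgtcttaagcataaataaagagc
Irgm1: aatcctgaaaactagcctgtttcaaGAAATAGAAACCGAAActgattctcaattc
Igtp: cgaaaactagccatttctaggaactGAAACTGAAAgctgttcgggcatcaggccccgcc
Isg15: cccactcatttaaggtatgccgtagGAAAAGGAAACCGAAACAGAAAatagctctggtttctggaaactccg
The Oas1a stretch lies at chr5:120907526-120907570 on the minus strand, with its matches from base -20 to base -5 before the start. The Bst2 stretch lies at chr8:71537562-71537627 (minus strand), the Ifit1 stretch at chr19:34640760-34640838 (plus strand) and the Rsad2 stretch at chr12:26456538-26456597 (minus strand). The Gbp2 stretch lies at chr3:142620579-142620638 (plus strand), the Irgm1 stretch at chr11:48871421-48871475 (minus strand), the Igtp stretch at chr11:58199497-58199555 (plus strand) and the Isg15 stretch at chr4:156200850-156200921 (minus strand). In Bst2 the matches span bases -130 to -115, in Ifit1 bases -104 to -76 and in Rsad2 bases -120 to -111. A GAS match at bases -136 to -128 of Bst2 overlaps its first ISRE match.

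Members with and without the ISRE letters lay on both sides of the median difference. The 12 measured members with a match had a median difference of -0.47 and ranged from -1.40 (Oas1a) to 1.70 (Gbp2). Of these 12, 2 (Oas1a and Bst2) fell, beside 2.6% of all genes. The 15 measured members with a promoter and no match had a median of -0.43, and 3 of them (Irf5, Xaf1 and Ifi35) fell, beside the same 2.6%. Oas1a and Gbp2, at the 2 ends of that range, both carry the letters close to the start, at bases -20 to -5 and -59 to -50. Mx1, Mx2 and Usp18 had no promoter in the table.

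**Figure D2:**
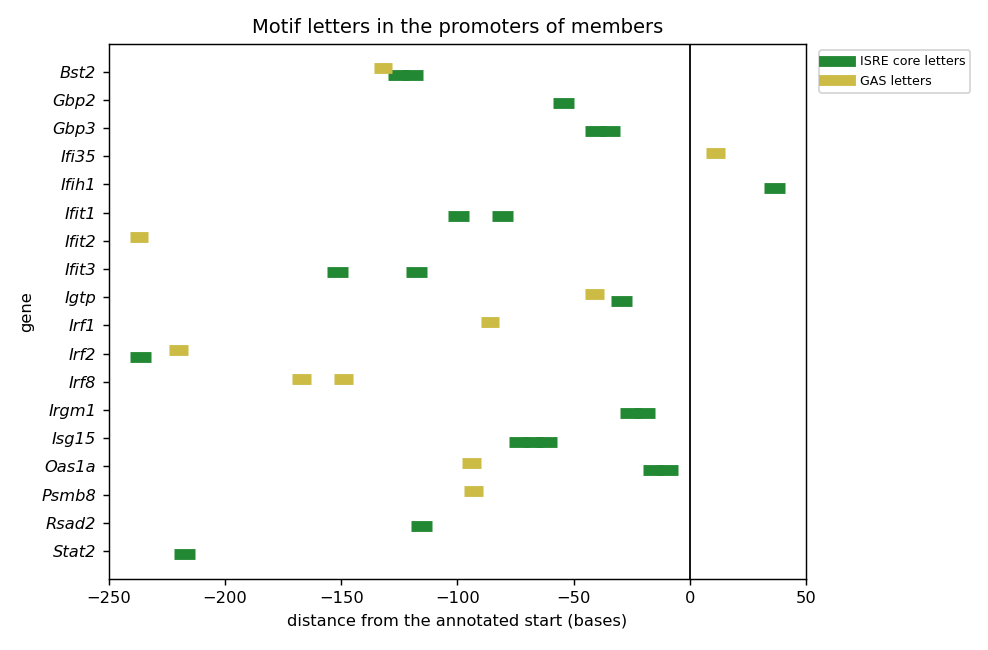
Positions of the ISRE core letters (green) and the GAS letters (yellow) in RefSeq promoters of the members, as the distance in bases from the annotated start (x axis); members with no match are left out. The ISRE matches of Irgm1, Oas1a and Igtp lie within 34 bases before the start, and those of Bst2, Rsad2 and Ifit3 lie at least 111 bases before it.

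All 8 interferon regulatory factors had a lower mean in db/db liver, beside 50.3% of all genes. Of the 8, 1 fell, Irf5 (12.5%), beside 2.6% of all genes. The median difference of the 8 factors was -0.46. Irf5 acts downstream of Toll-like receptors and is known for driving inflammatory cytokine genes in macrophages. Its levels were 8.36, 8.67, 8.85, 8.98 and 9.29 on BKS 1 to 5 and 7.31, 7.15, 5.83 and 7.34 on db/db 1 to 4. The groups did not overlap, and db/db 3 lay well below the other db/db arrays. Irf5 was 3.79-fold lower in db/db, with means of 8.83 ± 0.35 (SD, n = 5) and 6.91 ± 0.72 (SD, n = 4) and a difference of -1.92 (SE 0.33, limma adjusted p = 0.00387). Without db/db 3 the difference was -1.56. A second, dimmer probe set for Irf5 differed by -0.28 and did not pass the threshold, so the fall rests on 1 of 2 probe sets.

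The other 7 factors did not pass the threshold. Irf2, which competes with Irf1 for the same sites and restrains the response, was at 10.28, 10.01, 9.88, 10.53 and 10.39 in BKS and at 9.55, 8.74, 9.37 and 10.13 in db/db. Its db/db 4 array lay within the BKS range and the other 3 below it, and the difference was -0.77 (SE 0.24, limma adjusted p = 0.0893). It was called without db/db 4, and also with the 18S set as a block. Irf7, the main inducer of type I interferon genes in an established response, was at 10.13, 10.65, 10.55, 10.52 and 10.70 in BKS and at 10.20, 9.39, 9.50 and 10.72 in db/db. Here db/db 2 and db/db 3 were low, while db/db 1 and db/db 4 lay in or above the BKS range, and the difference was -0.56 (SE 0.24, adjusted p = 0.246). It was called without db/db 4. Irf9, the DNA-binding partner of Stat2, was at 9.94, 9.77, 9.69, 9.58 and 9.40 in BKS and at 9.77, 9.04, 8.22 and 9.71 in db/db, a difference of -0.49 (SE 0.28, adjusted p = 0.402). As with Irf7, db/db 2 and db/db 3 were the low arrays, and without db/db 3 the difference of Irf9 was -0.17.

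Irf1, an activator induced by interferon-gamma, differed by -0.34 (SE 0.17). Irf8, which directs the development of monocytes and dendritic cells, differed by -0.40 (SE 0.26), and its second probe set by -1.32 without passing the threshold. Irf4, best known in lymphocytes, differed by -0.43 (SE 0.42), and this sign rests on db/db 2, without which the difference was 0.03. Irf3, the factor that starts interferon-beta transcription after nucleic acid is sensed, differed by -0.22 (SE 0.15). For Irf3 and Irf4 the probe sets of the gene differed in sign.

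Among the 2 measured members of the signalling chain itself neither passed the threshold. Usp18, a protease that removes Isg15 from proteins and also blocks the type I receptor, was nearly constant in BKS liver at 10.06, 9.90, 9.93, 9.93 and 9.95. In db/db it was at 9.31, 8.85, 8.28 and 9.91. The BKS standard deviation was 0.06 and the db/db one 0.69, with 3 db/db arrays below all BKS arrays and db/db 4 level with them. The difference was -0.87 (SE 0.26, limma adjusted p = 0.0719), and Usp18 was called without db/db 4. Stat2 was at 7.67, 9.32, 8.92, 8.18 and 8.54 in BKS and at 8.63, 8.19, 7.93 and 8.33 in db/db, all inside the BKS range. It differed by -0.25 (SE 0.31), and its second probe set by -0.96, which did not pass the threshold either.

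Of the 11 sensors and antiviral effectors, 10 (90.9%) had a lower mean in db/db, beside 50.3% of all genes. Oas1a and Bst2 fell, 2 of the 11 (18.2%), beside 2.6% of all genes. The median difference of the 11 was -0.43. Oas1a makes 2-5A, the signal that activates the RNA-degrading enzyme RNase L. Its levels were 9.88, 9.59, 9.19, 8.41 and 8.91 in BKS and 8.00, 7.90, 7.48 and 7.81 in db/db. The 4 db/db arrays lay close together and below every BKS array, and within BKS the lowest levels were on BKS 4 and BKS 5, the arrays with high 18S signal. Oas1a was 2.64-fold lower in db/db (9.20 ± 0.57 against 7.80 ± 0.23, SD; difference -1.40, SE 0.28, limma adjusted p = 0.00965). The difference was -1.61 among arrays with low 18S signal and -1.02 among those with high 18S signal. Oas1a belongs to a family of near-identical genes, and other members of it may bind the same probes.

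Bst2, or tetherin, holds budding virus particles on the cell surface. Its levels were 11.41, 11.54, 11.39, 12.13 and 12.35 in BKS and 10.57, 10.38, 11.03 and 11.30 in db/db. The groups did not overlap, but db/db 4 lay just under BKS 3. Within each group the 2 arrays with high 18S signal were the highest. Bst2 was 1.92-fold lower in db/db (11.76 ± 0.45 against 10.82 ± 0.42, SD; difference -0.94, SE 0.23, limma adjusted p = 0.0320), with a difference of -0.97 at low and -1.07 at high 18S signal. It was called in 4 of 9 fits that left out 1 array, and not without BKS 4, BKS 5, db/db 1, db/db 2 or db/db 3.

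Several other effectors were low on the first 3 db/db arrays and not on the last. Rsad2, or viperin, which makes a chain-terminating nucleotide, was at 10.98, 11.02, 10.97, 10.44 and 10.04 in BKS and at 9.62, 9.72, 8.79 and 10.57 in db/db. Ifit1, which binds viral RNA without the host cap methylation, was at 10.26, 10.11, 9.93, 10.48 and 10.46 in BKS and at 9.25, 8.59, 8.69 and 10.69 in db/db. Mx2, a dynamin-like antiviral GTPase, was at 7.97, 8.48, 7.98, 8.19 and 7.24 in BKS and at 6.98, 5.72, 5.08 and 7.59 in db/db. In each of these 3 genes, db/db 1, 2 and 3 lay below all BKS arrays, whereas db/db 4 lay within the BKS range in Rsad2 and Mx2 and above it in Ifit1. Their differences were -1.02 (Rsad2, SE 0.30), -0.94 (Ifit1, SE 0.34) and -1.63 (Mx2, SE 0.47), with limma adjusted p-values of 0.0745, 0.154 and 0.0665. All 3 were called without db/db 4, where the difference of Ifit1 was -1.40.

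The remaining effectors differed less. Ifit3, a partner of Ifit1, was at 9.84, 9.46, 9.42, 9.72 and 9.53 in BKS and at 9.31, 8.45, 8.78 and 10.22 in db/db (difference -0.40, SE 0.29). Ifit2, another member of that family, was at 6.03, 6.84, 6.65, 6.22 and 6.14 in BKS and at 5.96, 5.45, 5.56 and 7.86 in db/db (difference -0.17, SE 0.48). In both genes db/db 4 was the highest of all 9 arrays, and without db/db 2 or without db/db 3 the sign for Ifit2 turned, to 0.09 and 0.05. Mx1 differed by -0.42 (SE 0.37), Oasl2 by -0.43 (SE 0.38) and Ifih1, the sensor of long double-stranded RNA also called MDA5, by -0.25 (SE 0.17). Oasl1, which restrains the translation of Irf7, differed by 0.07 (SE 0.23). None of these 6 passed the threshold.

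Xaf1 and Ifi35, the 2 measured members of their role, both fell, beside 2.6% of all genes. Xaf1, which antagonises the apoptosis inhibitor XIAP, was at 11.77, 11.18, 11.37, 11.06 and 11.05 in BKS and at 10.59, 9.97, 9.75 and 10.88 in db/db. The groups did not overlap, with db/db 4 just under the lowest BKS arrays. Xaf1 was 1.98-fold lower in db/db (11.29 ± 0.30 against 10.30 ± 0.53, SD; difference -0.99, SE 0.23, limma adjusted p = 0.0219), and its second probe set differed by -0.88. It was not called without BKS 1, BKS 3, db/db 2 or db/db 3. Ifi35, which binds the protein Nmi, was at 13.12, 12.40, 12.30, 12.79 and 12.73 in BKS and at 11.84, 11.69, 11.65 and 12.45 in db/db. Here db/db 4 lay above BKS 2 and BKS 3. Ifi35 was 1.70-fold lower (12.67 ± 0.33 against 11.91 ± 0.37, SD; difference -0.76, SE 0.19, limma adjusted p = 0.0342). It was called in 3 of 9 fits that left out 1 array, namely those without BKS 2, BKS 3 or db/db 4, and its other probe sets differed by -0.16 and -0.51. Bst2 and Ifi35 were the 2 called members nearest to the threshold, and Mx2 and Usp18 the 2 nearest on its other side.

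Over all probe sets rather than 1 per gene, the members had 47, and 11 members had more than 1. Adjusted over 45037 probe sets, 4 of them passed the threshold, those used above for Irf5, Oas1a, Xaf1 and Bst2, beside 1.19% of all probe sets called lower. The brightest probe set of Ifi35 then had a limma adjusted p of 0.0503. In Irf3, Irf4 and Tap1 the probe sets of a gene differed in sign.

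**Figure D3:**
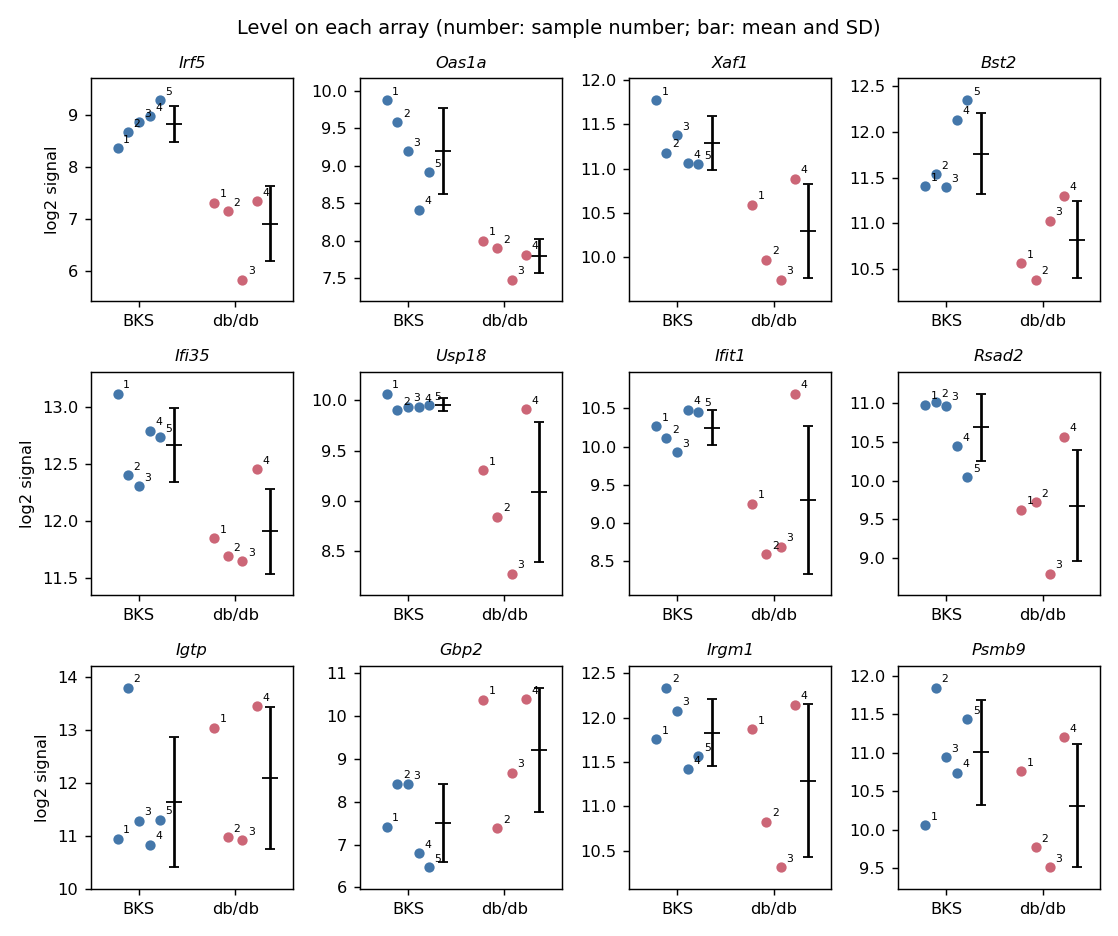
Log2 signal (y axis) of 12 members on each of the 5 BKS (blue) and 4 db/db (red) arrays, with the sample number at each point and the mean and SD as bars. In Irf5, Oas1a, Xaf1 and Bst2 every db/db point lies below every BKS point, in Usp18, Ifit1 and Rsad2 db/db 4 stands apart from the other 3, and in Igtp BKS 2, at 13.80, is the highest point.

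Of the 4 interferon-inducible GTPases, 3 had a higher mean in db/db, beside 9051 of all 18193 genes. The median difference of the 4 was 0.29, and none passed the threshold. Some proteins of this kind attack the membranes around intracellular microbes and others regulate such GTPases, and their genes are classical targets of interferon-gamma. Gbp2 was at 7.42, 8.42, 8.42, 6.80 and 6.47 in BKS and at 10.38, 7.39, 8.68 and 10.39 in db/db. It was highest on db/db 1 and db/db 4, while db/db 2 lay among the BKS arrays. Gbp2 was 3.26-fold higher by the means (7.51 ± 0.90 against 9.21 ± 1.46, SD; difference 1.70, SE 0.60, limma adjusted p = 0.139). The difference was 0.80 at low and 2.90 at high 18S signal, its second probe set differed by 1.05, and it was called higher without db/db 2. Igtp, a regulator of other GTPases of its family, was at 10.94, 13.80, 11.28, 10.83 and 11.30 in BKS and at 13.04, 10.97, 10.91 and 13.44 in db/db. BKS 2, db/db 1 and db/db 4 stood well above the other 6 arrays, and the difference of 0.46 (SE 0.63) did not pass the threshold. It was 1.00 without BKS 2 and 0.0090 without db/db 4.

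Irgm1, an immunity-related GTPase linked to autophagy, was at 11.76, 12.34, 12.08, 11.42 and 11.57 in BKS and at 11.87, 10.83, 10.31 and 12.15 in db/db (difference -0.54, SE 0.32). Gbp3 was at 8.66, 7.79, 7.83, 7.65 and 7.72 in BKS and at 8.66, 7.99, 6.31 and 9.22 in db/db (difference 0.11, SE 0.48), and its sign turned without db/db 1 or without db/db 4, to -0.09 and -0.28. Across the 4 GTPases, db/db 4 was the highest db/db array in 4 of 4, BKS 2 the highest BKS array in 3 of 4 and BKS 4 the lowest BKS array in 3 of 4. Guanylate-binding proteins are similar in sequence, so a probe set may read more than 1 of them.

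The immunoproteasome subunits Psmb8 and Psmb9 cut proteins into peptides that fit class I molecules, and Tap1 carries these peptides into the endoplasmic reticulum. All 3 had a lower mean in db/db, beside 50.3% of all genes, and none passed the threshold. Psmb9 was at 10.06, 11.84, 10.94, 10.74 and 11.44 in BKS and at 10.76, 9.77, 9.52 and 11.20 in db/db (difference -0.69, SE 0.37, limma adjusted p = 0.373). Tap1 was at 9.34, 10.29, 9.68, 9.41 and 9.89 in BKS and at 9.47, 8.59, 8.48 and 9.86 in db/db (difference -0.62, SE 0.29, adjusted p = 0.289). Psmb8 differed by -0.42 (SE 0.29, adjusted p = 0.517). In all 3 genes BKS 1 was the lowest and BKS 2 the highest BKS array, and db/db 3 was the lowest db/db array. Psmb9 and Tap1 start on opposite strands, with 225 bases between their starts. These bases (chr17:34187331-34187555, read on the plus strand, the strand of Tap1) are printed because both genes share them. They hold neither motif searched, so no letter is in capitals.
Psmb9 to Tap1: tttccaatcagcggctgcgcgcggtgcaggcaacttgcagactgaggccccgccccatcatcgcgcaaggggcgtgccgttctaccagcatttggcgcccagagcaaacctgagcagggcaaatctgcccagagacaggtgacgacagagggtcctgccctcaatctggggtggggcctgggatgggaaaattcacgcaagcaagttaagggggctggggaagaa

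The order of the arrays within a group was not used in choosing the members, and it was shared by most of them. Of the 4 db/db arrays, db/db 4 was the highest in 21 of 30 members (70.0%), beside 26.4% of all genes, and the lowest in none. It lay above its group mean in 29 of 30, beside 9506 of all 18193 genes. The lowest db/db array was db/db 3 in 19 members (63.3%), beside 24.2% of all genes. It was db/db 2 in 9 (30.0%), close to the 27.2% of all genes. Relative to the BKS means, the median of the members was -0.25 on db/db 1, -0.99 on db/db 2, -0.93 on db/db 3 and -0.01 on db/db 4, and between -0.10 and 0.15 on the BKS arrays. Thus 2 of the db/db arrays lay about 1 log2 unit below the BKS means in the median member and 1 lay level with them. Among BKS arrays, BKS 2 was the highest in 13 of 30 members (43.3%), beside 15.6% of all genes. These shares describe 9 arrays, and the members are not replicates of each other.

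The place of db/db 1 was not the same in every role. Among the antiviral effectors the median relative to BKS was -0.99, -1.15, -0.81 and 0.14 on db/db 1 to 4, so db/db 1 was low together with db/db 2 and db/db 3. Among the GTPases it was 1.07, -0.39, -1.12 and 1.55, so db/db 1 was high together with db/db 4. In the immunoproteasome group it was -0.25, -1.13, -1.36 and 0.14, and in the regulatory factors -0.17, -0.88, -0.85 and -0.19. The standard deviation was larger in db/db than in BKS in 25 of 30 members (83.3%), beside 46.6% of all genes. The median standard deviation of the members was 0.35 in BKS and 0.70 in db/db, and over all genes it was 0.41 and 0.38.

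**Figure D4:**
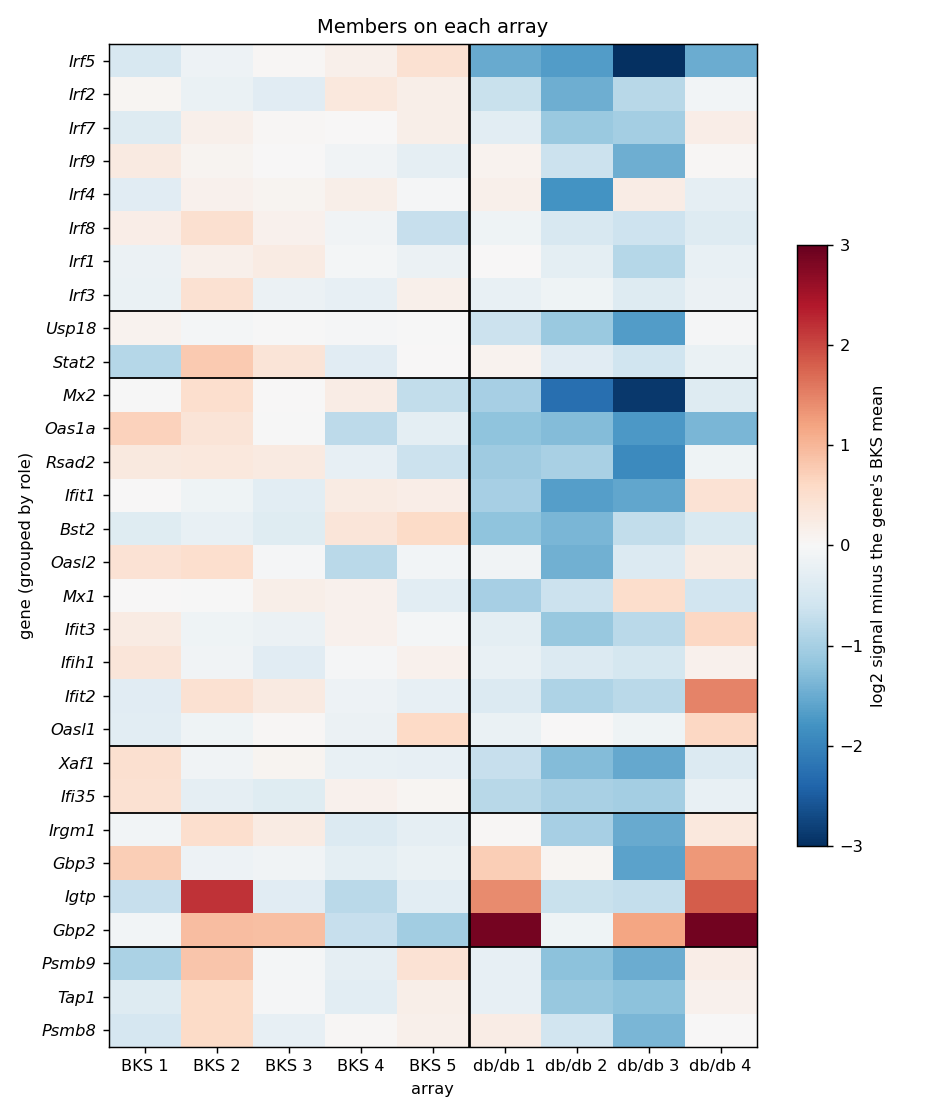
Level of each measured member on each array as the log2 signal minus the mean of the BKS arrays of that gene (blue lower, red higher), with genes grouped by role and the BKS arrays left of the thick line. The columns of db/db 2 and db/db 3 are mostly blue (medians -0.99 and -0.93), the column of db/db 4 is near the BKS level (median -0.01), and the GTPases are red on db/db 1 and db/db 4.

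The 2 db/db arrays at the ends of this order, db/db 3 and db/db 4, both belong to the set with high 18S signal, and db/db 2 belongs to the set with low 18S signal. Markers of other cell types were set beside the members, and none of the listed markers was called in any of the 9 marker lists. All db/db arrays lay below all BKS arrays in 1 of 7 dendritic cell and 2 of 8 hepatocyte markers, beside 4.42% of all genes. The same held for 1 of 9 T and NK cell markers. In 1 of 6 stellate cell and fibroblast markers the db/db arrays all lay above, beside 4.73% of all genes. The summed signal of 12 of 12 Kupffer cell and macrophage markers was 15580, 20001, 16953, 7410 and 7134 on BKS 1 to 5 and 11538, 10343, 4621 and 9123 on db/db 1 to 4. It was lowest on db/db 3, where most members were lowest, and highest on BKS 2, the BKS array that most often held the highest level. It was also low on BKS 4 and BKS 5, where the median member lay at -0.10 and -0.04. Every array with high 18S signal, db/db 3 among them, had a lower sum of these markers than every array with low 18S signal. Of these 12 Kupffer cell and macrophage markers 9 had a lower mean in db/db, beside 50.3% of all genes. In 4 of them (33.3%) the unadjusted limma p was under 0.05, beside 17.6% of all genes. For dendritic cells (7 of 8 markers measured) the sums ran from 451 to 582 in BKS and from 332 to 572 in db/db. For T and NK cells (9 of 10) they ran from 529 to 1103 and from 394 to 747, with the highest sum on BKS 2, for B and plasma cells (5 of 6) from 515 to 795 and from 439 to 544, and for neutrophils (5 of 6) from 401 to 980 and from 384 to 761. Bile duct markers (4 of 4) ran from 518 to 667 in BKS and from 281 to 577 in db/db, with a median difference of -0.77, and stellate cell and fibroblast markers (6 of 6) from 3237 to 14401 and from 5238 to 14319, with a median of 0.41. Endothelial markers (6 of 6) ran from 1763 to 3577 and from 1656 to 3640. Their sums, too, were lower on every array with high 18S signal than on every array with low 18S signal. In such sums the brightest markers weigh most. These were Csf1r and Cd5l for Kupffer cells and macrophages (BKS means 11.98 and 11.35 on the log2 scale). For T and NK cells it was Cd8a (9.26 on BKS 2), and for stellate cells and fibroblasts Dcn (BKS mean 11.81). The sums therefore do not describe every marker of a list. The table holds no detection calls, so no marker could be called absent. On the log2 scale a signal of 0 would give 4, and the lowest means were those of the T cell marker Cd3d in BKS (4.69) and of the dendritic cell marker Xcr1 in db/db (4.56). The part of these cells or of the 18S signal in the differences was not tested.

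The rest of the interferon pathway was followed with 98 further genes in 7 lists, of which 82 had a probe set of their own. Of the 82, 6 fell (7.32%, beside the 2.6% of all genes given above) and none rose, with 20 (24.4%) at an unadjusted p under 0.05, beside 17.6% of all genes. Their median difference was -0.15, and 50 of 82 (61.0%) had a lower mean. Of the interferon genes themselves 10 of 17 were measured, and 8 of these had a higher mean in db/db, beside 9051 of all 18193 genes. None of the 10 passed the threshold, and the median difference was 0.34. Several had levels near that of no signal, such as Ifna4 with means of 4.89 and 5.20 and Ifng with 4.80 and 5.29. Interferon-gamma, Ifng, differed by 0.48 (SE 0.34, limma adjusted p = 0.520) and interferon-beta, Ifnb1, by 0.36 (SE 0.53, limma adjusted p = 0.803).

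No receptor chain passed the threshold. The type I receptor chains Ifnar1 and Ifnar2 differed by 0.01 (SE 0.18) and 0.28 (SE 0.15), and the interferon-gamma receptor chains Ifngr1 and Ifngr2 by -0.22 (SE 0.24) and 0.32 (SE 0.23). The type III receptor chains Ifnlr1 and Il10rb differed by 0.39 (SE 0.48) and 0.20 (SE 0.20). None of the 9 measured genes of that list, which also holds the receptor kinases, and none of the 12 measured sensors and adaptors was called, with medians of 0.18 and -0.29. The 6 further class I genes and the 3 chemokines had medians of -0.18 and -0.01, and none of them was called.

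Of 6 inhibitors of the signal 1 fell, Socs3 (16.7%), beside 2.6% of all genes. Socs3 blocks receptor-bound kinases and is induced chiefly by interleukin-6 and leptin, and its levels were 10.62, 10.46, 9.21, 10.49 and 9.70 in BKS and 8.99, 8.11, 6.93 and 7.93 in db/db. The groups did not overlap, and db/db 3 was lowest. Socs3 was 4.31-fold lower in db/db (difference -2.11, SE 0.38, limma adjusted p = 0.00516) and was called in 9 of 9 fits that left out 1 array, but not with its most variable probe set or on the arrays with low 18S signal alone. The other 5 inhibitors had differences between 0.02 (Pias1) and 0.49 (Ptpn6), and none passed the threshold.

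Among 36 further interferon-stimulated genes 29 (80.6%) had a lower mean in db/db, beside 50.3% of all genes. Of the 36, 5 fell (13.9%), beside 2.6% of all genes, and none rose, beside 2.89% of all genes. The median difference of the 36 was -0.49, close to that of the members. Ifi27, an interferon-induced protein of mitochondria and the nuclear envelope, was at 12.63, 12.20, 12.37, 12.73 and 12.50 in BKS and at 11.24, 11.07, 9.33 and 11.36 in db/db. Every db/db array lay below the BKS arrays and db/db 3 far below, and Ifi27 was 3.33-fold lower (difference -1.74, SE 0.33, limma adjusted p = 0.00678). Parp14, an ADP-ribosyltransferase, was at 10.42, 10.37, 10.22, 9.96 and 9.77 in BKS and at 8.90, 8.74, 8.99 and 9.70 in db/db, 2.09-fold lower (difference -1.07, SE 0.21, adjusted p = 0.00923). Here db/db 4 lay just under BKS 5. Ifi27 and Parp14 were called in 9 of 9 fits that left out 1 array. Neither was called on the arrays with high 18S signal alone, nor was Ifi27 without the intensity trend or Parp14 with its most variable or averaged probe sets.

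Cmpk2, a mitochondrial nucleotide kinase encoded beside Rsad2, was at 9.38, 8.87, 9.52, 8.52 and 8.59 in BKS and at 7.54, 7.09, 5.10 and 8.32 in db/db. It was 3.90-fold lower (difference -1.96, SE 0.51, limma adjusted p = 0.0405). As in Rsad2, db/db 3 was lowest and db/db 4 highest, but in Cmpk2 the groups did not overlap. Ifi47, a GTPase of the same family as Irgm1 and Igtp, was at 12.37, 13.71, 12.64, 12.33 and 12.50 in BKS and at 12.09, 11.79, 10.24 and 11.41 in db/db. It was 2.51-fold lower (difference -1.33, SE 0.35, adjusted p = 0.0413), with BKS 2 far above the other BKS arrays and db/db 3 lowest. Ifitm3, a membrane protein that blocks virus entry, was bright and even in BKS, at 14.77, 14.67, 14.74, 14.74 and 14.85, and stood at 14.50, 13.95, 13.51 and 14.35 in db/db. It was 1.60-fold lower (difference -0.68, SE 0.17, adjusted p = 0.0315). Cmpk2 and Ifi47 were called in 1 and Ifitm3 in 3 of 9 fits that left out 1 array, and the count of 6 pathway genes fell to 3 without BKS 1, BKS 3, BKS 4, BKS 5 or db/db 3.

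**Figure D5:**
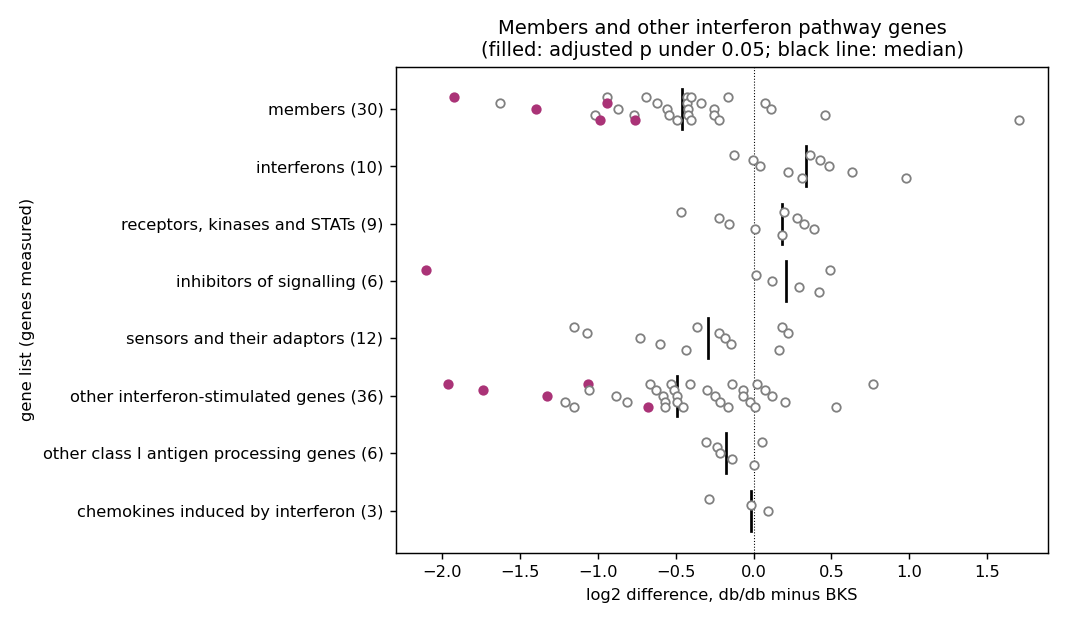
Difference between db/db and BKS liver on the log2 scale (x axis) for the 30 measured members and for 82 other interferon pathway genes in 7 lists (y axis); each point is a gene, filled points have an adjusted p under 0.05 over all genes tested and the black line is the median of a list. The filled points, 5 members, Socs3 and 5 further interferon-stimulated genes, all lie left of 0, and the medians of interferons (0.34) and receptors (0.18) lie right of it.

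In these 82 genes the lowest db/db array was db/db 3 in 35 (42.7%, beside 24.2% of all genes). It was db/db 2 in 21 (25.6%, beside 27.2%) and db/db 4 in 18 (22.0%, beside 24.4%). The highest was db/db 4 in 27 (32.9%, beside 26.4% of all genes) and db/db 1 in 23 (28.0%, beside 18.2%). Among the members, by contrast, db/db 4 was the lowest in none. The GTPase Irgm2 followed the pattern of Igtp, at 10.03, 11.55, 10.52, 10.16 and 10.63 in BKS and at 11.09, 8.88, 8.75 and 11.31 in db/db. So did the chemokine Cxcl9, an interferon-gamma target that draws T cells, on the db/db arrays, at 11.13, 8.67, 7.97 and 10.87, where BKS ran from 8.68 to 10.01. These 2 genes were picked after their values were seen and neither passed the threshold. In both, as in Igtp and Gbp2, db/db 1 and db/db 4 were the high arrays.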

How the data were processed

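RNA was extracted from 100 mg pieces of frozen liver, and 8 µg per sample was made into biotin-labelled cRNA for single-colour Affymetrix arrays, per the labels' protocols. The authors deposited a table with a linear intensity for every probe set on each of the 9 arrays. Trimmed by 2% at each end, the deposited intensity values averaged 500 on every array, which shows scaling to a common target. For the array software and the background correction, the sources used here give nothing. No 2 arrays were identical.

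The 45101 probe sets included 34945 with 1 gene symbol, 932 with several, 9160 not listed in the annotation used and 64 controls. Of those with 1 symbol, 34741 matched the RefSeq table by gene identifier. The deposited intensities were transformed as log2(value + 16) and then quantile normalized (R 4.3.3, limma 3.58.1). Each gene took its brightest probe set, which gave 18193 genes. The limma fit (lmFit, then eBayes with an intensity trend) had group as its single term and was two-sided, and p-values were adjusted by Benjamini-Hochberg over all genes, with a threshold of 0.05. The small number of arrays limits the precision. The fit was tested on simulated data.

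The members and lists, drawn from general knowledge of the pathway, were chosen with earlier results of these data known. The genes named are all measured members, every called gene of the pathway lists and the receptor chains. Lepr, Ifna4, Ifng, Ifnb1, Pias1, Ptpn6, Irgm2, Cxcl9, Cd3d, Xcr1, Csf1r, Cd5l, Cd8a and Dcn were named in addition after their values were seen. Marker lists covered 9 cell types. Alternatives changed the scaling, pseudocount, filter, probe set rule, moderation, array weights, blocks or arrays, and kept the probe set of each gene except where the probe set rule was changed. Equal sample numbers of the 2 groups were not taken as pairs.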

Additional observations from a re-analysis of the deposited data

Results flagged for a closer look

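Of 72 groups of arrays in which the named genes were examined for a single array far from the rest of its group, 5 held one, and chance alone gives about 1 in 20. In Irf5 db/db 3 was the lowest db/db array at 5.83, with the nearest at 7.15, a gap of 0.871 of the range of the group. In Ifi27 the same array was lowest at 9.33, with the nearest at 11.07 (0.860 of the range). In Igtp BKS 2 was the highest BKS array at 13.80, with the nearest at 11.30 (0.840 of the range). In Ifi47, a GTPase of the same family, BKS 2 was again highest at 13.71, with the nearest at 12.64 (0.777 of the range). In Gbp3 BKS 1 was highest at 8.66, with the nearest at 7.83 (0.818 of the range).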

How the results depend on the processing

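Irf5 and Oas1a were called lower in 13 of the 14 alternatives that did not leave out a single array, the exception being the 4 arrays with high 18S signal alone, Bst2 in 12, Xaf1 in 9 and Ifi35 in 8. Of the other pathway genes, Socs3 and Ifi27 were called in 12 of these 14, Parp14 in 11, Ifi47 in 9, Ifitm3 in 8 and Cmpk2 in 7. Members called lower, 5 in the analysis reported, numbered 2 with arrays centred on their medians, 3 with averaged probe sets, 2 without the intensity trend and 1 on the arrays with high 18S signal, where 1 was called higher. All genes called lower and higher numbered 212 and 323 with median centring, which moved the lower share of calls from 47.3% to 39.6%, 212 and 254 without the trend, 200 and 209 on the arrays with low 18S signal and 237 and 258 on those with high 18S signal. Those called lower numbered 260 with the most variable probe set, 273 with averaged probe sets and 751 with the 18S set as a block, where Irf2 joined the called members. Other pathway genes called lower numbered 3 with median centring, with averaged probe sets and on either 18S set alone, and 2 without the trend, and 1 was called higher with averaged probe sets. Signs turned for Irf3 (0.59 with the most variable and 0.017 with averaged probe sets), Tap1 (0.75 with the most variable probe set), Igtp (-0.0032 on arrays with low 18S signal) and, on those with high 18S signal, Ifit2 (0.53), Mx1 (0.079) and Oasl2 (0.36). The cause was not tested.

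Leaving out 1 array gave 2 to 11 members called lower and 0 to 1 higher, a median difference of the members from -0.73 to -0.38, 3 to 7 other pathway genes called lower and 0 higher, and 284 to 433 genes called lower and 312 to 518 higher. Both lowest counts of all genes came without db/db 3. Signs turned for 4 members, whose differences ran from -0.64 to 0.031 (Irf4), from -0.72 to 0.087 (Ifit2), from -0.11 to 0.22 (Oasl1) and from -0.28 to 0.69 (Gbp3).

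Same-numbered arrays of the 2 groups had correlations of their deviations of 0.03, 0.17, -0.07 and 0.13. Of 8 arrays, 4 correlated best with their own number. The arrays numbered 1, 2 and 4 share their 18S set between the groups, and those numbered 3 do not. This check therefore cannot decide whether the numbers are pairs. The labels state no pairs, and the analysis reported took none. With the replicate block 8 members were called lower, Irf2, Mx2 and Rsad2 being added.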
